A study of Homo sapiens with 8 samples.

Results

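The 10 genes described here encode chains of the major histocompatibility complex (MHC) class II molecules, the proteins that help load peptides onto them, and regulators of their transcription. They were taken by gene symbol: HLA-DRA, HLA-DPA1 and HLA-DPB1 for peptide binding, HLA-DMA, HLA-DMB, HLA-DOA, HLA-DOB and CD74 for peptide loading, and CIITA and RFX5 as regulators. Each symbol had 1 identifier, so the members are 10 of 16608 genes with counts in all libraries. All 10 passed the filter on low counts and are among the 16320 genes tested. The lowest count of any member in any library was 36 reads, for HLA-DOB.

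RNA was sequenced from SupB15 cells, a human leukemia line (acute lymphoblastic, of pre-B type, with the Philadelphia chromosome), in 4 groups of 2 libraries. The DMSO group received the solvent for 46 h, the 1035 group received 1035, called a histone deacetylase inhibitor by the series title, at 2 µM for 46 h, and the doxorubicin group received doxorubicin, a DNA-damaging anthracycline, at 0.1 µM for 10 h. In the combination, 1035 at 2 µM for 36 h came before doxorubicin at 0.1 µM for 10 h, and the sources used here do not say whether 1035 stayed in the medium then. All results come from this 1 line, and the design text calls the samples of each treatment independent.

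MHC class II molecules are pairs of an alpha and a beta chain that show peptides from endosomes to CD4 T cells, and B cells are among the cells that carry them without induction. In the endoplasmic reticulum the pair is held by the invariant chain, the product of CD74. In endosomes this chain is cut to a fragment that HLA-DM, a dimer of HLA-DMA and HLA-DMB, exchanges for peptide, while HLA-DO, a dimer of HLA-DOA and HLA-DOB, holds HLA-DM back. RFX5, with RFXANK and RFXAP, binds the X box of class II promoters, the factor NF-Y binds the Y box with its CCAAT letters, and CIITA joins these factors without binding DNA itself. Loss of CIITA or of an RFX subunit causes bare lymphocyte syndrome, in which class II genes are not expressed.

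The promoters of these genes are shown because RFX5 and CIITA act through the X and Y boxes. RefSeq promoters on GRCh38.p14 were found for 8 of the 10 members, all but HLA-DRA and CIITA. In each, the 250 bases before the gene's start were searched on both strands for AGNNACNGA, the core of the X box, and for CCAAT, and the letters of the X box core were chosen after these promoters had been read. The motifs can overlap, and a match is a description of the letters, not a site of binding. The stretches below are written 5′ to 3′ on the strand of the gene, with the X box core and CCAAT, or ATTGG where CCAAT lies on the other strand, in capitals.
HLA-DMA: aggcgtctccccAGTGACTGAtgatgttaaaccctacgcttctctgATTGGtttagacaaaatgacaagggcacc
HLA-DOA: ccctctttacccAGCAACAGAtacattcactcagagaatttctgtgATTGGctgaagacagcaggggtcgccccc
HLA-DMB: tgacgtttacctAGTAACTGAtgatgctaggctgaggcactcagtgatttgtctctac
HLA-DPB1: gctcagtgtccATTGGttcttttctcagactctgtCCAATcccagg
HLA-DOB: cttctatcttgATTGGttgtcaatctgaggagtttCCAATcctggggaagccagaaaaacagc
CD74: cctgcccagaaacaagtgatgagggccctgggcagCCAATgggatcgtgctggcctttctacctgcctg
RFX5: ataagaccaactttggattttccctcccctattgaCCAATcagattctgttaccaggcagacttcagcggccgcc

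The HLA-DMA stretch lies on the minus strand at chr6:32953148-32953222, HLA-DOA at chr6:33009630-33009704 (minus), HLA-DMB at chr6:32941071-32941128 (minus), HLA-DPB1 at chr6:33075880-33075925 (plus), HLA-DOB at chr6:32817049-32817111 (minus), CD74 at chr5:150412930-150412998 (minus) and RFX5 at chr1:151347390-151347464 (minus). All 7 stretches lie before the annotated exons of their genes. HLA-DMA and HLA-DOA held an X box core followed by ATTGG, with starts at -113 and -79 and at -101 and -67 from the start of the gene. An X box core with ATTGG after it, starts at most 45 bases apart, was found in 0.214% of the 35116 promoters in the table. Because the core letters were chosen with these promoters known, this share is a description and not a test. The HLA-DMB promoter held an X box core at -88 and, outside the printed stretch, CCAAT at -22 and a core on the other strand at -18 that overlaps it by 1 base. Of 2 starts of HLA-DPA1, only the second had a match, a core at -99. RFX5 had 3 starts, and only the first, which is the one printed, had a match. Also outside the printed stretches, HLA-DMA held another ATTGG at -49 and RFX5 another CCAAT at -95. The core was present in 12.3% of all promoters and CCAAT in 32.0%. In the other printed stretches only CCAAT or ATTGG was matched, which says only that the searched letters of the core are not in these windows.

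In the libraries with 1035, 9 of the 10 members were higher than in those without it, and RFX5 was lower. In CPM, that is, read counts scaled to a common library size with TMM factors, all 4 libraries with 1035 (alone or before doxorubicin) were above all 4 without it for each of the 9 genes, and below all 4 for RFX5. Over the 16320 genes tested, 24.5% were higher and 24.7% lower in all 4 libraries with 1035. In the test of 1035 against DMSO (edgeR's quasi-likelihood test, two-sided, adjusted over all genes by Benjamini-Hochberg at 0.05), 9 members rose and 1 fell, where 24.2% of all genes rose and 24.8% fell. The median log2 fold change of the 10 members was 0.55, beside 0.01 over all genes. Reads of the 10 members together made up 0.192% to 0.211% of the counted reads in libraries without 1035. With 1035 this was 0.247% to 0.257%.

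**Figure D1:**
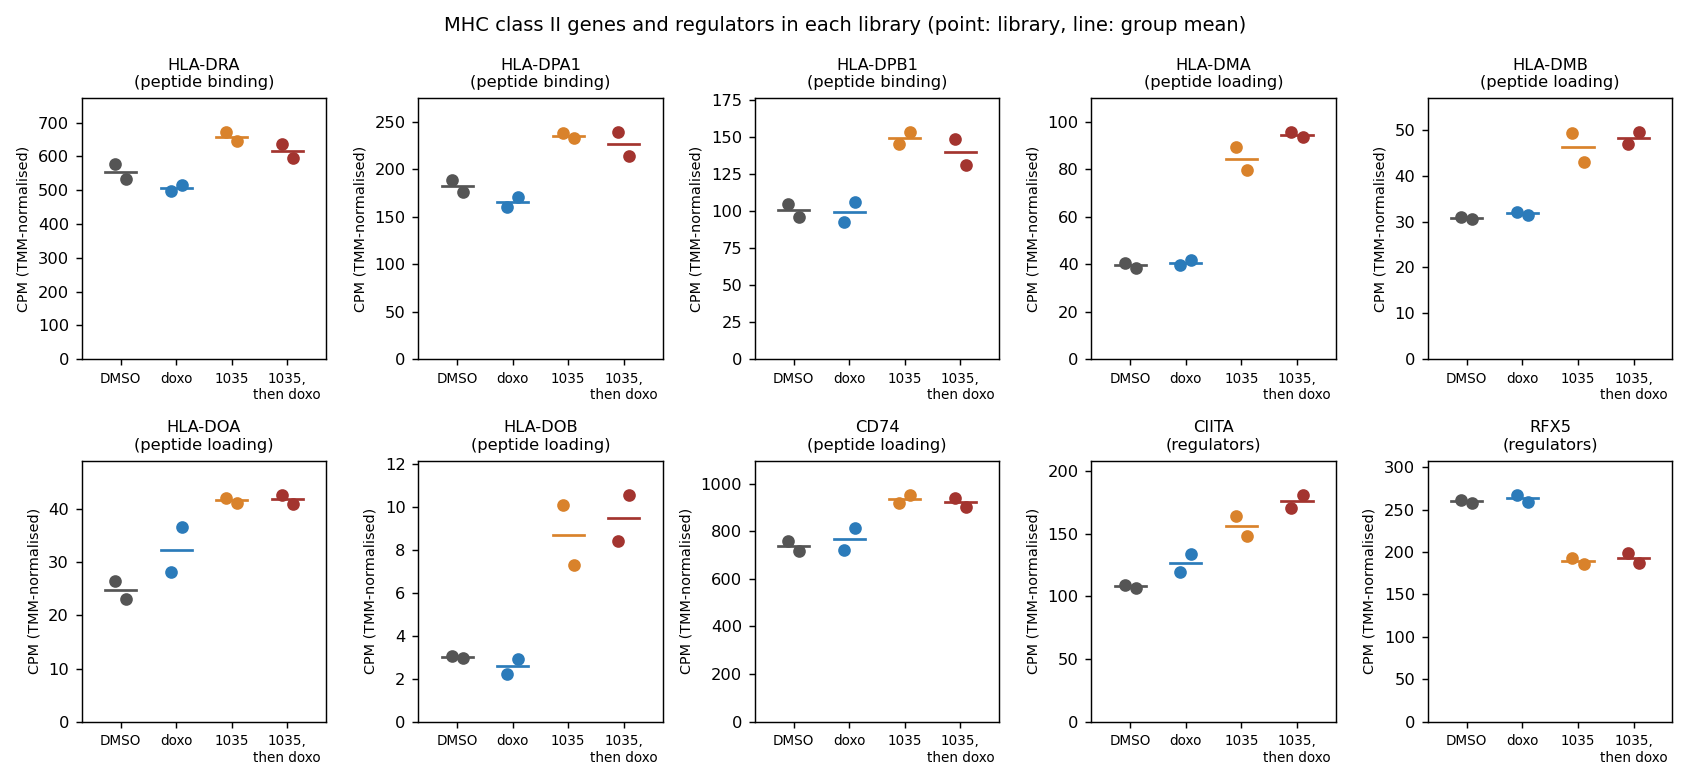
Level of each member (vertical axis, TMM-normalised CPM, from 0) in each of the 8 libraries (points), with the group mean as a line and the treatment on the horizontal axis, where doxo is doxorubicin. For 9 genes the 1035 and combination points lie above all DMSO and doxorubicin points, and for RFX5 they lie below.

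Among the peptide-binding chains the changes were small. HLA-DRA, the alpha chain that pairs with all DR beta chains, was at 577 and 533 CPM in DMSO, 673 and 645 CPM in 1035, 497 and 515 CPM in doxorubicin, and 637 and 596 CPM in the combination. The closest libraries of the groups with and without 1035 were thus 577 and 596 CPM. Its log2 fold change in 1035 against DMSO was 0.25 ± 0.06 (SE; adjusted p = 4.8e-04), the lowest of the 9 members that rose. Without the second DMSO library it was 0.19, with adjusted p = 0.0520.

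HLA-DPA1, the DP alpha chain, was at 189 and 176 CPM in DMSO, 238 and 232 CPM in 1035, 161 and 171 CPM in doxorubicin, and 239 and 213 CPM in the combination. It rose by 0.37 ± 0.06 (log2 fold change ± SE, 1035 against DMSO; adjusted p = 4.1e-06). HLA-DPB1, the DP beta chain, was at 105 and 96.2 CPM in DMSO, 145 and 153 CPM in 1035, 92.4 and 106 CPM in doxorubicin, and 149 and 131 CPM in the combination. It rose by 0.57 ± 0.07 (adjusted p = 3.5e-08). Both DP genes were higher in every library with 1035, and the median log2 fold change of the 3 binding chains was 0.37. The DP genes overlap on opposite strands, and the strand setting of the read counter was not stated in the sources used here; the split of reads between them is therefore uncertain.

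The largest changes among the members were those of peptide-loading genes, whose median log2 fold change was 0.75 over 5 genes. HLA-DMA, the HLA-DM alpha chain, was at 40.5 and 38.6 CPM in DMSO, 89.6 and 79.6 CPM in 1035, 39.8 and 41.7 CPM in doxorubicin, and 95.8 and 93.6 CPM in the combination. The DMSO and doxorubicin libraries lay within a narrow range, and those with 1035 were all far above it. The log2 fold change was 1.10 ± 0.07 (SE; 1035 against DMSO, adjusted p = 1.6e-15). HLA-DMB, the HLA-DM beta chain, was at 31.0 and 30.6 CPM in DMSO, 49.4 and 43.0 CPM in 1035, 32.1 and 31.5 CPM in doxorubicin, and 47.0 and 49.6 CPM in the combination. It rose by 0.59 ± 0.09 (adjusted p = 3.0e-07), beside 1.10 for its partner chain. A GENCODE v29 gene on the same strand, AL645941.2, spans parts of HLA-DMA and HLA-DMB, and its own log2 fold change was 0.90 ± 0.13 (8.29 CPM in DMSO and 15.5 CPM in 1035). BRD2, which overlaps HLA-DMA on the opposite strand, had a log2 fold change of -0.20 ± 0.06, opposite in direction to HLA-DMA.

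HLA-DOB, the HLA-DO beta chain, had the lowest level and the largest change of the members. It was at 3.06 and 2.98 CPM in DMSO, 10.1 and 7.31 CPM in 1035, 2.24 and 2.91 CPM in doxorubicin, and 8.44 and 10.6 CPM in the combination. The groups with 1035 were wide apart within themselves but did not overlap those without it. The log2 fold change was 1.53 ± 0.20 (SE; 1035 against DMSO, adjusted p = 2.5e-08). A gene annotated across it on the same strand, AL669918.1, was at 65.3 CPM in DMSO and 57.9 CPM in 1035, far above HLA-DOB, and its log2 fold change was -0.17 ± 0.07. How reads shared by the pair were counted was not stated.

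HLA-DOA, the HLA-DO alpha chain, was at 26.5 and 23.1 CPM in DMSO, 42.2 and 41.2 CPM in 1035, 28.1 and 36.7 CPM in doxorubicin, and 42.7 and 40.9 CPM in the combination. The doxorubicin pair was the most spread, and both of its libraries were above both DMSO libraries. In 1035 against DMSO the log2 fold change was 0.75 ± 0.10 (SE; adjusted p = 1.6e-07). CD74, the invariant chain, was at 757 and 715 CPM in DMSO, 918 and 953 CPM in 1035, 719 and 814 CPM in doxorubicin, and 941 and 901 CPM in the combination. It rose by 0.35 ± 0.06 (adjusted p = 6.4e-06), close in size to HLA-DPA1.

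The regulators moved in opposite directions. CIITA, the class II transactivator, was at 109 and 107 CPM in DMSO, 164 and 149 CPM in 1035, 120 and 134 CPM in doxorubicin, and 171 and 181 CPM in the combination. The group means rose in the order DMSO, doxorubicin, 1035 and combination. Of these steps, doxorubicin against DMSO (adjusted p = 0.0737) and the combination against 1035 (adjusted p = 0.463) did not pass edgeR's test. The log2 fold change in 1035 against DMSO was 0.53 ± 0.06 (SE; adjusted p = 6.8e-09). DEXI, which overlaps CIITA on the opposite strand, had a value of -0.08 ± 0.11. RFX5, the DNA-binding subunit of the RFX complex, was at 262 and 258 CPM in DMSO, 193 and 186 CPM in 1035, 267 and 259 CPM in doxorubicin, and 199 and 186 CPM in the combination. It fell by 0.45 on the log2 scale (SE 0.06; adjusted p = 2.0e-08), while the class II genes rose.

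With doxorubicin added, the members differed between cells with and without 1035 in the same directions. In the combination against doxorubicin 9 members rose and 1 fell, where 21.8% of all genes rose and 22% fell. HLA-DOB was again the member with the largest log2 fold change, at 1.91 ± 0.20 (SE; adjusted p = 4.5e-10), and HLA-DMA followed at 1.22 ± 0.07 (adjusted p = 7.1e-17). HLA-DRA, HLA-DPA1 and HLA-DPB1 had log2 fold changes of 0.29, 0.45 and 0.50, CD74 0.26, HLA-DMB 0.60, CIITA 0.48 and RFX5 -0.45. HLA-DOA rose by 0.38 ± 0.10 (adjusted p = 0.0016), and without the first doxorubicin library this value was 0.19 with adjusted p = 0.140. The median over the members was 0.46, beside 0.00 over all genes.

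In the combination against DMSO, again 9 members rose and 1 fell, where 24.5% of all genes rose and 24.7% fell. This comparison shares its DMSO libraries with 1035 against DMSO and its combination libraries with the combination against doxorubicin. HLA-DRA had the weakest call, with a log2 fold change of 0.15 ± 0.06 (SE; adjusted p = 0.029). It was lost without the second DMSO library (0.10, adjusted p = 0.364) or without the first combination library (0.11, adjusted p = 0.252). CIITA was at 0.70 ± 0.06, HLA-DMA at 1.26 ± 0.07 and RFX5 at -0.43 ± 0.06. In the authors' deposited tables, 9 members were higher and 1 lower at an adjusted p below 0.05 in 1035 against DMSO and also in the combination against doxorubicin.

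**Figure D2:**
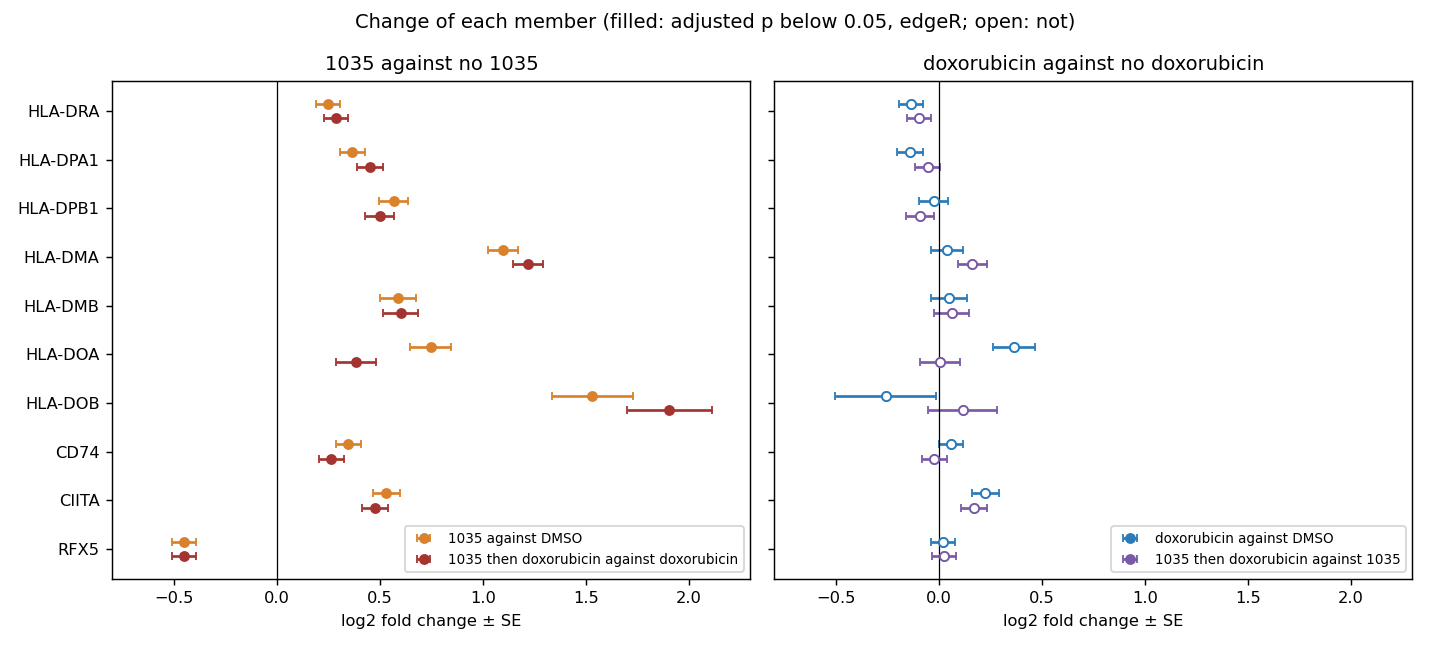
Log2 fold change of each member (horizontal axis, with bars of 1 SE) for 1035 against no 1035 on the left and doxorubicin against no doxorubicin on the right, each without and with the other drug. Filled points have an adjusted p below 0.05 by edgeR: all 20 on the left, from -0.45 for RFX5 to 1.91 for HLA-DOB, and none on the right.

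Doxorubicin alone gave no call among the members. The solvent lasted 46 h in the DMSO group and doxorubicin 10 h, a difference that cannot be told apart from the drug. In doxorubicin against DMSO 0 of 10 passed edgeR's test, where 0.784% of all genes rose and 0.545% fell. At an unadjusted p under 0.05 by edgeR there were 4 members, 2 higher and 2 lower. Of all 16320 genes, 1099 were higher and 1070 lower at that level. DESeq2 called 0 members, with 3 members given no adjusted p by it. HLA-DOA had a log2 fold change of 0.37 ± 0.10 (SE; adjusted p = 0.0656) and CIITA 0.23 ± 0.07 (adjusted p = 0.0737). Without the first doxorubicin library, which left 1 library in that group, HLA-DOA was at 0.56 and CIITA at 0.31. CIITA passed when genes under a mean normalised count of 50 were left out (adjusted p = 0.0386), and was at 0.23 with either 1035 library left out. Over its 15 alternatives CIITA ranged from 0.14 to 0.31, and HLA-DOA from 0.17 to 0.56 over 14. These alternatives include fits with 1 library in a group. HLA-DRA and HLA-DPA1 were the other members with a low unadjusted p, each with a log2 fold change of -0.14 (adjusted p = 0.297 and 0.311).

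When doxorubicin followed 1035, 0 of 10 members passed in the combination against 1035, where 0.349% of all genes rose and 0.147% fell. DESeq2 called 0 members. At an unadjusted p under 0.05 by edgeR, 592 of all 16320 genes were higher and 518 lower, and 2 members were among those higher. The 2 members were CIITA, with a log2 fold change of 0.17 ± 0.06 (SE; adjusted p = 0.463), and HLA-DMA, with 0.16 ± 0.07 (adjusted p = 0.635). An end of exposure to 1035 and the addition of doxorubicin cannot be told apart in this comparison. The authors' deposited tables likewise had 0 members at an adjusted p below 0.05 in both comparisons of doxorubicin with no doxorubicin.

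Whether the effect of 1035 differed with doxorubicin was tested as the interaction, that is, the log2 fold change of 1035 with doxorubicin minus that without. The labels give 1035 for 36 h before doxorubicin and for 46 h alone, which cannot be told apart from an interaction. By edgeR 0 members passed, where 0.0184% of all genes (3 genes) were higher and 0% lower, with 437 lower at an unadjusted p under 0.05 and 0 called lower by DESeq2. Among the members 1 had an unadjusted p under 0.05, and DESeq2 called 0. This was HLA-DOA, whose difference was -0.36 ± 0.14 (SE; 95% interval -0.64 to -0.09; adjusted p = 0.952). Without the first doxorubicin library, which left 1 library in that group, it was -0.56. The interval for HLA-DOB ran from -0.21 to 0.96 and for HLA-DMA from -0.09 to 0.33. The intervals of HLA-DRA (-0.12 to 0.20), CIITA (-0.23 to 0.12) and RFX5 (-0.16 to 0.17) were narrower.

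Levels of different genes were compared as CPM per kilobase, with the gene length taken from the deposited FPKM values. These lengths ran from 1282 bases for HLA-DRA to 12053 bases for CIITA, and how they were defined was not stated. The order of the genes, and the size of a ratio between 2 genes, depend on them. A change in the ratio of 2 genes between treatments does not. In DMSO the order was HLA-DRA (433 ± 24.3 CPM per kilobase, SD, n = 2), CD74 (231 ± 9.36), RFX5 (56.5 ± 0.615), HLA-DPB1 (35.1 ± 2.18), HLA-DPA1 (31.7 ± 1.61), HLA-DMA (15.6 ± 0.516), CIITA (8.96 ± 0.159), HLA-DMB (6.60 ± 0.0643), HLA-DOA (6.18 ± 0.593) and HLA-DOB (1.62 ± 0.0317). The neighbours HLA-DMB and HLA-DOA were closer to each other than their spread. In 1035 HLA-DRA was at 514 ± 15.4 and CD74 at 293 ± 7.71 CPM per kilobase, still first and second. HLA-DPB1 (52.1 ± 2.02) was then above RFX5 (41.3 ± 1.07), and RFX5 and HLA-DPA1 (40.9 ± 0.696) were within their spread of each other. HLA-DMA followed at 33.3 ± 2.78, CIITA at 13 ± 0.890, HLA-DOA at 10.4 ± 0.171, HLA-DMB at 9.91 ± 0.979 and HLA-DOB at 4.67 ± 1.05.

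Within HLA-DM and within HLA-DO, the ratio of the chains in reads per length was compared library by library. The ratio of HLA-DMA to HLA-DMB was 2.40 and 2.32 in DMSO, 2.28 and 2.43 in doxorubicin, 3.33 and 3.40 in 1035, and 3.74 and 3.47 in the combination. The ratio of HLA-DOA to HLA-DOB was 4.01 and 3.60 in DMSO, 5.81 and 5.84 in doxorubicin, 1.94 and 2.61 in 1035, and 2.34 and 1.79 in the combination. With 1035 the alpha chain thus gained on the beta chain for HLA-DM and lost ground for HLA-DO, with no overlap between libraries with and without 1035 in either ratio. These ratios restate the levels above and were not tested. Their size rests on lengths of 2537 bases for HLA-DMA, 4661 for HLA-DMB, 4018 for HLA-DOA and 1861 for HLA-DOB.

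The ratio of the summed HLA-DM chains to the summed HLA-DO chains was 2.74 and 2.96 in DMSO, 2.89 and 2.86 in 1035, 2.75 and 2.17 in doxorubicin, and 3.16 and 3.0 in the combination. Apart from the second doxorubicin library these values lay close together. CD74 to HLA-DRA was 0.527 and 0.539 in DMSO, 0.549 and 0.594 in 1035, 0.582 and 0.636 in doxorubicin, and 0.594 and 0.608 in the combination, lowest in DMSO. CIITA to RFX5 was 0.159 and 0.158 in DMSO, 0.170 and 0.197 in doxorubicin, 0.323 and 0.304 in 1035, and 0.327 and 0.370 in the combination.

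**Figure D3:**
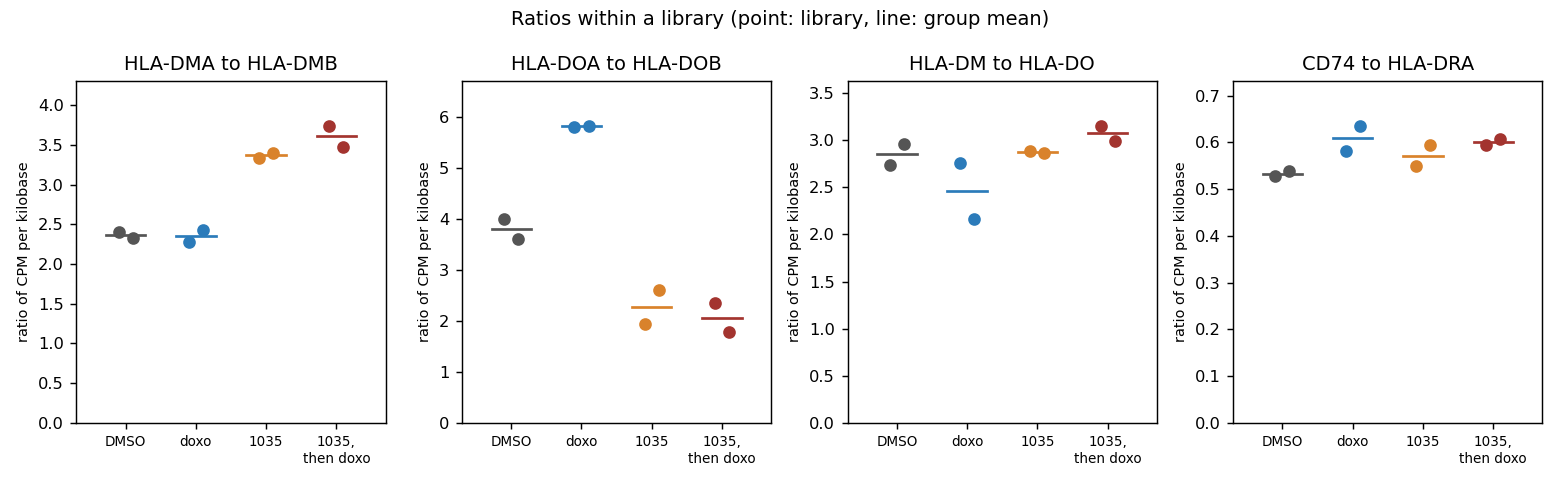
Ratios of CPM per kilobase between members (vertical axis, from 0) in each library (points) with group means (lines), by treatment on the horizontal axis, where doxo is doxorubicin. HLA-DMA to HLA-DMB lies at 3.33 or above in the libraries with 1035 and at 2.43 or below in the others, while HLA-DOA to HLA-DOB lies at 2.61 or below with 1035 and at 3.60 or above without.

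Genes with the pattern most like that of CIITA, HLA-DRA and RFX5 were ranked by the root mean square difference between the centred log2 CPM of the 4 group means, among 10127 genes with a mean of at least 10 CPM. For CIITA these were LENG8 (0.0175), ADAM19 (0.0244) and LRRC28 (0.0255). The members nearest to CIITA were HLA-DOA at rank 237 and HLA-DMB at rank 259, while HLA-DMA was at rank 5845. For HLA-DRA they were FBXO18 (0.00384), RP11-287D1.3 (0.00547) and ZNF419 (0.00831), with HLA-DPA1 at rank 724 and CD74 at rank 810. For RFX5 they were YWHAE (0.00900), DGCR8 (0.0103) and C9orf91 (0.0104). With 4 group means from the same libraries, such closeness describes shape only.

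Of the other class II chains, 4 of 6 had counts in all libraries, and in 1035 against DMSO 3 rose and 1 did not pass. HLA-DQA1, the DQ alpha chain, was at 31.1 and 31.6 CPM in DMSO, 48.1 and 49.4 CPM in 1035, 32.7 and 38.4 CPM in doxorubicin, and 60.0 and 56.4 CPM in the combination. It rose by 0.64 ± 0.09 on the log2 scale, and HLA-DQB1 by 0.48 ± 0.07 (1035 against DMSO). HLA-DRB1, the partner of HLA-DRA, was at 0.16 ± 0.06 (adjusted p = 0.0378). That call was lost with DESeq2 (adjusted p = 0.115), without either DMSO library (0.0608 and 0.264) and without the second 1035 library (0.169). HLA-DRB5, with 0.02 ± 0.11, did not pass. In the combination against doxorubicin 2 rose and 2 did not pass, HLA-DRB1 being at 0.04 ± 0.07. These genes are polymorphic with near-identical copies, so their counts are uncertain.

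Promoter factors beside RFX5 were the RFX subunits RFXANK and RFXAP, the NF-Y subunits and CREB1. In 1035 against DMSO 0 of 6 rose, 1 fell and 5 did not pass. NFYB, an NF-Y subunit, fell from 80.0 ± 2.96 to 57.4 ± 1.77 CPM (SD, n = 2; log2 fold change -0.48 ± 0.07 SE). In the combination against doxorubicin 2 fell, NFYB (-0.44 ± 0.07) and NFYC (-0.21 ± 0.08, adjusted p = 0.0410, or 0.130 with DESeq2).

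Of 9 factors known to act on CIITA transcription, 4 rose, 3 fell and 2 did not pass in 1035 against DMSO, with a median log2 fold change of -0.11. IRF1, an interferon-induced activator, rose by 0.50 ± 0.07 (238 to 337 CPM), IRF8 by 0.44 ± 0.06 and IRF2 by 0.37 ± 0.07. USF1, which binds an interferon-responsive CIITA promoter, was at -0.33 ± 0.06. In the combination against doxorubicin 4 rose and 4 fell. The coactivators CREBBP, EP300 and KAT2B are acetyltransferases that CIITA recruits, and in 1035 against DMSO 0 rose and 2 fell, CREBBP (-0.45 ± 0.07) and KAT2B (-0.44 ± 0.10). All 3 fell in the combination against doxorubicin.

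Endosomal processing genes moved both ways. Of 9 listed, 7 had counts in all libraries, and 4 rose, 2 fell and 1 did not pass in 1035 against DMSO. LGMN, an asparagine-specific endopeptidase of endosomes, was at 2.10 and 2.71 CPM in DMSO, 13.1 and 13.5 CPM in 1035, 2.35 and 1.94 CPM in doxorubicin, and 12.4 and 12 CPM in the combination. Its log2 fold change of 2.46 ± 0.18 (SE; adjusted p = 5.5e-15) was larger than that of any member. IFI30, a thiol reductase that opens disulfide bonds of antigens, rose by 1.68 ± 0.10, from 10.8 ± 0.0974 to 34.6 ± 1.19 CPM (SD, n = 2). SPPL2A, which cuts the membrane remnant of CD74, was lower, with a log2 fold change of -0.68 ± 0.10, as was CTSS, the protease that trims the invariant chain (-0.41 ± 0.09). One of the 4 calls upward, CST3, was lost with DESeq2 (adjusted p = 0.234).

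Of 3 genes of class II turnover at the surface, 2 were tested, and both rose in 1035 against DMSO. MARCH1 was not among the genes with counts in all libraries. CD83, which counters the removal of class II molecules from the surface, was at 8.10 and 5.95 CPM in DMSO, 16.6 and 15 CPM in 1035, 10.2 and 10.4 CPM in doxorubicin, and 25.3 and 25.4 CPM in the combination. CD83 was highest in the combination. Its log2 fold change was 1.17 ± 0.13 (SE) in 1035 against DMSO and 0.68 ± 0.11 (adjusted p = 2.3e-04) in the combination against 1035. In doxorubicin against DMSO it was 0.55 ± 0.14 (adjusted p = 0.0368), and that call was lost in several alternatives (adjusted p = 0.509 without the second DMSO library). MARCH8, a ubiquitin ligase that removes class II molecules from the surface, rose by 0.50 ± 0.10 in 1035 against DMSO.

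**Figure D4:**
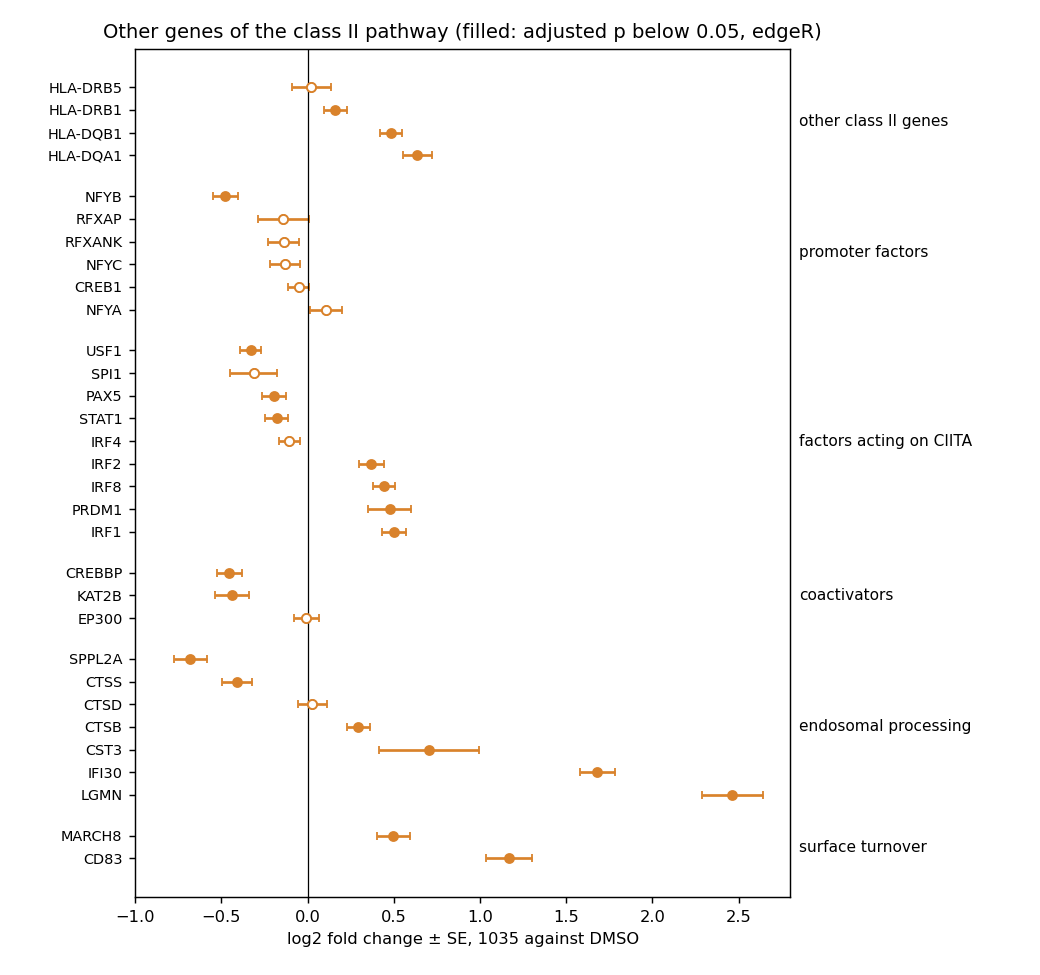
Log2 fold change in 1035 against DMSO (horizontal axis, with bars of 1 SE) of the tested genes of 6 lists of the class II pathway, grouped by list. Filled points have an adjusted p below 0.05 by edgeR, and LGMN at 2.46 and SPPL2A at -0.68 are the extremes.

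Reads counted in the genes with counts in all libraries ran from 11760542 to 18144670 per library. B-lineage markers were present as the label says: all 13 had counts, with a summed level of 4748 to 4934 CPM in DMSO, 4590 to 4807 in doxorubicin, 3680 to 3699 in 1035 and 3471 to 3580 in the combination, and 3 rose and 7 fell in 1035 against DMSO. Markers of myeloid and dendritic cells, which also carry class II molecules, had counts in all libraries for 7 of 11, without CD14, ITGAX, FCER1A and CLEC4C. Their summed level was 32.9 to 34.3 CPM in DMSO, 33.6 to 37.0 in doxorubicin, 52.5 to 58.3 in 1035 and 52.8 to 55.9 in the combination, and 5 rose and 1 fell. Of the fibroblast markers, COL1A1 and PDGFRB had counts, with a sum of 25.8 to 27.5 CPM in DMSO, 26.4 to 30.3 in doxorubicin, 65.8 to 71.2 in 1035 and 64.6 to 67.3 in the combination, while 0 of 6 T-cell markers had counts in all libraries. With 1035 the B-lineage sum was lower, while the myeloid and fibroblast sums were higher, as 9 members were, and their part in the result was not tested. The B-lineage sum mixes opposite changes. From DMSO to 1035 the mean of IGLL1 went from 851 to 244 CPM and that of DNTT from 923 to 501 CPM. CD22, CD79A and CD79B were the 3 that rose. The fibroblast sum was mostly PDGFRB, with means of 26.4 CPM in DMSO and 66.2 CPM in 1035, beside 0.229 and 2.24 CPM for COL1A1. In bulk RNA, fewer cells of a type and less RNA per cell cannot be told apart.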

How the data were processed

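Total RNA of 8 libraries was sequenced. Per the submitters' processing notes, tools and builds included Novoalign 2.08.01, DESeq2 1.4.5 and hg19. The sources used here do not state the read counter, its strand setting or the annotation. The authors deposited 4 tables, 1 per comparison, with raw counts per gene, FPKM, log2 fold changes and adjusted p-values per the file headers. The deposited FPKM served only to derive gene lengths, and the deposited log2 fold changes and p-values only for the calls named as the authors'.

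The tables were joined by identifier. Of 17849 genes, 16608 had counts in all 8 libraries, and 132880 counts held by 2 tables had 0 unequal. filterByExpr removed 288 genes. Counts of 16320 genes were normalised by TMM and fitted with edgeR 4.0.16 (R 4.3.3), robust quasi-likelihood, 4 group means, all 8 libraries, 4 residual degrees of freedom. SE is the log2 fold change divided by the root of F. The p-values measure the spread between samples of a group, pooled over groups (chi-square per degree of freedom 1.96 in DMSO, 3.49 in 1035, 5.44 in doxorubicin, 2.49 in the combination). The test was checked on simulated data.

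The members, the lists and the rule for named genes (at most 4 per list, smallest p among those called in 1035 against DMSO or in the combination against doxorubicin) were chosen with earlier results of these data known. CST3, HLA-DRB5, EP300, CD79A, CD79B, MARCH1 and the overlapping genes are named outside that rule. Alternatives were DESeq2 1.42.0, its size factors, other filters, a replicate block, fewer groups and libraries left out.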

Additional observations from a re-analysis of the deposited data

How the results depend on the processing

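Of 887 recomputed results of single members, 877 kept direction and side of the threshold, 4 lost the call, 6 gained it and 0 reversed. In 1035 against DMSO, the combination against doxorubicin and the combination against DMSO, 10 members were called in the main fit. In doxorubicin against DMSO the count of members called was 1 (CIITA, 0.25, adjusted p = 0.0386) when genes under a mean normalised count of 50 were left out. Apart from this, all the changed calls of members came from fits without a single library, which leaves 1 library in a group. The cause was not tested. Over all genes, DESeq2 called 58 higher in doxorubicin against DMSO where edgeR called 128, with no adjusted p for 11074.

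Numbers of replicates do not pair the samples: differences between library 1 and library 2 correlated between groups at -0.078 to 0.079 over 12076 genes. The replicate block gave 10, 0, 0, 10, 10 and 0 members called in the 6 comparisons, as without it. Summing identifiers of 1 symbol was not run, for the tests or the ratios, since each member has 1 identifier. HLA-DOB, with as few as 36 reads, is the member most limited by depth.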

Other observations

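The coactivators CREBBP and EP300 were higher in doxorubicin than in DMSO, with log2 fold changes of 0.36 ± 0.07 (SE; adjusted p = 0.0030 by edgeR) and 0.37 ± 0.07 (adjusted p = 0.0035), although no member was called there. CREBBP was at 94.1 and 98.8 CPM in DMSO, 117 and 131 CPM in doxorubicin, 66.6 and 74.4 CPM in 1035, and 70.3 and 79.5 CPM in the combination. Both calls were lost without the first DMSO library (adjusted p = 0.209 and 0.322) and without the second doxorubicin library (0.0524 and 0.135), and that for EP300 also in a fit of the 4 libraries of the 2 groups alone (0.0574). After 1035 neither passed in the combination against 1035 (0.09 ± 0.08 for CREBBP and 0.06 ± 0.07 for EP300). The difference between these effects did not pass the test of the interaction. It was -0.27 ± 0.10 for CREBBP (adjusted p = 0.952) and -0.31 ± 0.10 for EP300 (adjusted p = 0.952). Without the first doxorubicin library, which left 1 library in that group, it was -0.36 for CREBBP and -0.43 for EP300.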
